A study of Mus musculus with 12 samples.

Results

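The genes described here are Ptgs2, which encodes the inducible cyclooxygenase, and the other genes that make, break down and sense prostaglandin E2. The list holds 10 genes: the cyclooxygenases Ptgs1 and Ptgs2, the prostaglandin E synthases Ptges, Ptges2 and Ptges3, the prostaglandin-degrading enzyme Hpgd and the receptors Ptger1, Ptger2, Ptger3 and Ptger4. Of these, 9 had a named probeset among the 19938 genes measured. Ptgs1 had none and has no value here. The others were listed for what they do, whereas Ptgs2 was chosen by its measured values, which lay lower in Wnt4-deleted than in WT CD24 high cells. Its values in CD24 high cells are therefore given as a description with no test.

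The 12 Affymetrix arrays measured RNA from sorted mammary cells of female mice aged 10 to 14 weeks, in 4 groups of 3 arrays. WT mice were MMTV::Cre+.Wnt4wt/wt.mT/mG and Wnt4-deleted mice were MMTV::Cre+.Wnt4fl/fl.mT/mG. Both genotypes thus carried Cre under the MMTV promoter, which acts in only a share of epithelial cells, and the mT/mG reporter, which turns cells with active Cre green. GFP+ cells left after lineage depletion were sorted as CD24 low, called myoepithelial, or CD24 high, called luminal. Arrays were numbered 1 to 4, 9 to 12 and 13 to 16, each run of numbers holding 1 array of every group. The labels speak both of mammary glands and of grafts, and do not say whether animals were pooled. Values are log2 units, so that a difference of 1 is a doubling, and each gene's level is compared only with itself across arrays.

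Prostaglandin E2 is made from arachidonic acid, which phospholipases free from membranes. Cyclooxygenases turn it into prostaglandin H2, and prostaglandin E synthases turn that into prostaglandin E2. Ptgs2 is an immediate-early gene, switched on quickly by cytokines, growth factors and stress, and is known in the mammary gland for its role in tumour formation. Of the receptors, Ptger2 and Ptger4 couple to the G protein that raises cAMP, Ptger3 mainly to the one that lowers it, and Ptger1 to calcium signals. Wnt4 is a secreted ligand that luminal cells make in response to progesterone.

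Wnt4 read 7.42, 7.62 and 7.92 in WT CD24 high cells and 6.11, 6.46 and 6.78 in Wnt4-deleted CD24 high cells. These groups did not overlap, with a difference of -1.20 (SE 0.19, unadjusted p = 6.20e-05 and adjusted p = 0.416, limma). In CD24 low cells Wnt4 read 6.45 to 6.63 in WT and 6.20 to 6.66 after deletion. The mean of 17 myoepithelial markers was 10.41 to 10.93 in CD24 low and 6.28 to 6.94 in CD24 high arrays, and that of 15 luminal markers 8.36 to 8.96 and 10.60 or above, so the fractions carried their labels' markers. The CD24 low arrays also held other cells' RNA to unequal degrees. The mean of 12 endothelial markers was 6.73 and 6.59 on arrays 1 and 3, 8.15 to 9.26 on the other 4 CD24 low arrays, and 5.27 to 6.48 on CD24 high arrays. The mean of 11 fibroblast markers was 8.75 and 8.37 on arrays 9 and 11 and 5.39 to 6.87 elsewhere, and that of 10 skeletal muscle markers reached 6.86 and 7.79 on arrays 1 and 3. In such bulk samples fewer cells of a type and less RNA per cell cannot be told apart.

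The promoters of Ptgs2 and Ptges are shown because these genes, which act one after the other, had means that differed in opposite directions between the fractions. The sequences are RefSeq's for GRCm38.p6 and cover the 250 bases before the start base. Capitals mark motif matches. The Ptgs2 stretch lies at chr1:150099781-150100030 on the plus strand, the short stretch after its start at chr1:150100033-150100062, and the Ptges stretch at chr2:30903298-30903547 on the minus strand.
Ptgs2, before the start: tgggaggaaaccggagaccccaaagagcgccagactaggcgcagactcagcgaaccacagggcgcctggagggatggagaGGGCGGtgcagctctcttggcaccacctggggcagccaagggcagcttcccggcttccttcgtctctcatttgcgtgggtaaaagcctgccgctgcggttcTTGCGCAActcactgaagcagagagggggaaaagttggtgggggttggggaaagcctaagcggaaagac
Ptgs2, after the start: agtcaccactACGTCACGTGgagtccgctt
Ptges, before the start: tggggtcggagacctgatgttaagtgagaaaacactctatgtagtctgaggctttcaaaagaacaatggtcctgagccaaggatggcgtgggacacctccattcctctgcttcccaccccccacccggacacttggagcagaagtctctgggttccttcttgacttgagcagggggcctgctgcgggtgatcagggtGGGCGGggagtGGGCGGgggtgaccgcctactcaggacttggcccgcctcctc

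Windows of 300 bases, 250 before and 50 after the start, were searched on both strands for 11 motifs, and 9 of the 10 genes had such a window. Ptgs2 held a C/EBP match, TTGCNNAA, at -69 from the start base, as did 10.8% of 32851 mouse promoters. It held the core letters ACGTCA of the cAMP response element 12 bases after the start, found in 7.51% of promoters. That match overlapped the E-box CACGTG at 16 bases, found in 7.15%. An Sp1 match, GGGCGG, lay at -170 and was found in 35.7% of promoters. Ptges held GGGCGG at -53 and -42 and no other motif searched. Among the other genes, Ptges2 held CACGTG at -77, Ptger2 a TTGCNNAA match 39 bases after the start, and Ptger3, Ptger4, Ptges3 and Hpgd GGGCGG. Hpgd also held the TATA box letters TATAAA, found in 13.6% of promoters, but 4 bases after the start and not before it. None of these windows held TGACGTCA, the full response element, an NF-kB motif, the AP-1 letters TGANTCA or the TCF/LEF letters CTTTGAT or CTTTGA.

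Ptgs2 lay lowest in Wnt4-deleted luminal cells. Its value in WT CD24 low cells was 8.90, 9.55 and 8.60 on arrays 1, 9 and 13 (mean 9.01 ± 0.48, SD, n = 3). In Wnt4-deleted CD24 low cells it was 9.49, 9.14 and 9.97 on arrays 3, 11 and 15 (9.53 ± 0.41). These 2 groups overlapped. In WT CD24 high cells it was 8.79, 8.02 and 9.18 on arrays 2, 10 and 14 (8.67 ± 0.59), and in Wnt4-deleted CD24 high cells 7.60, 6.49 and 7.52 on arrays 4, 12 and 16 (7.20 ± 0.62). Every Wnt4-deleted CD24 high array lay below all 9 other arrays. In order of means the groups were Wnt4-deleted CD24 low, WT CD24 low, WT CD24 high and Wnt4-deleted CD24 high, and only the last step was free of overlap.

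**Figure D1:**
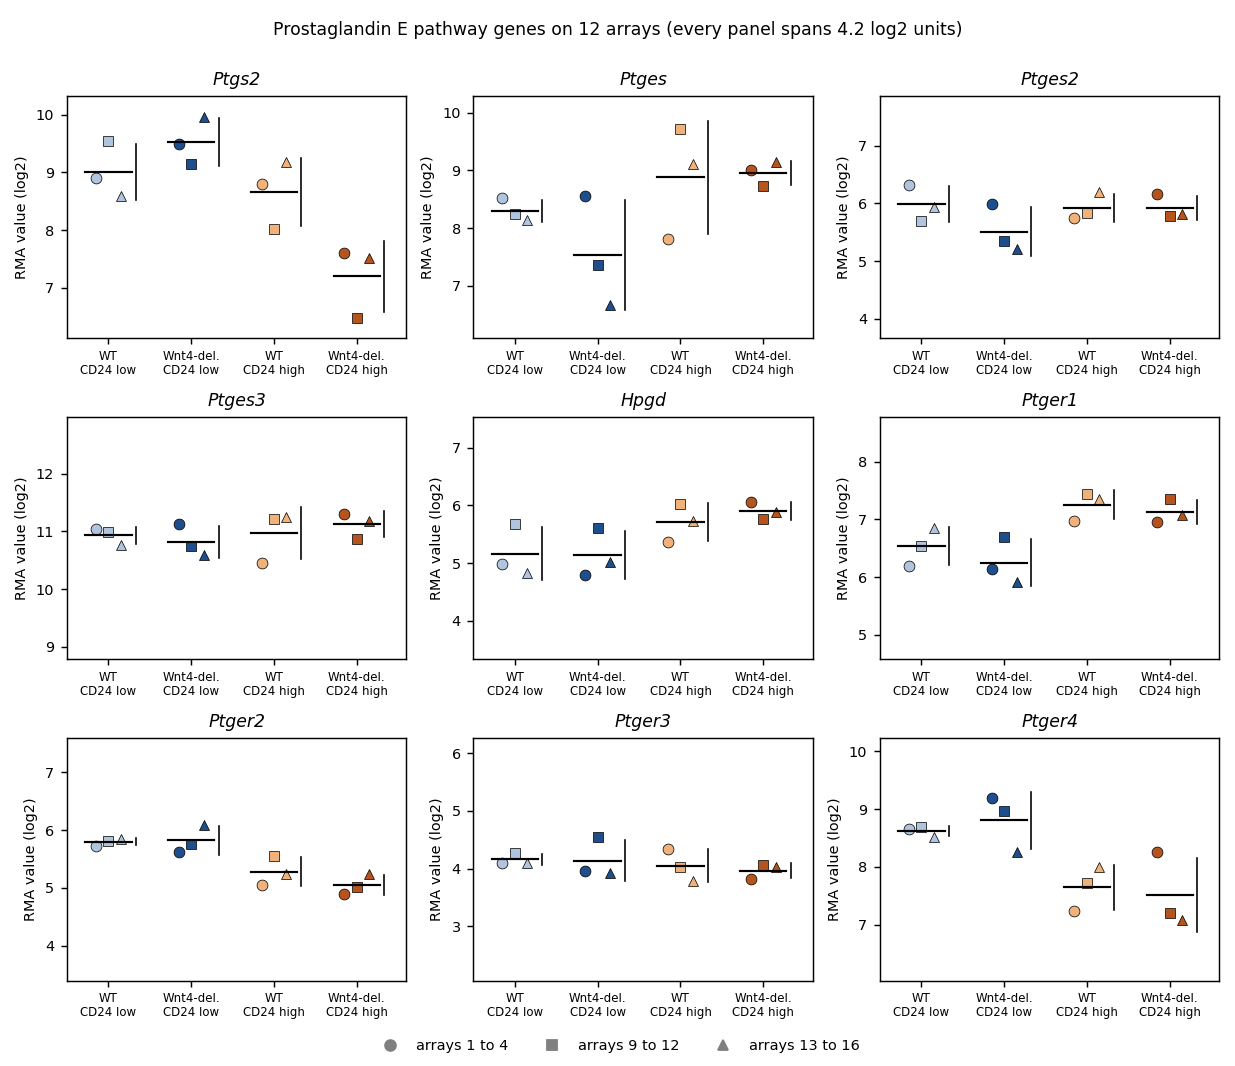
RMA value (log2) of 9 prostaglandin E pathway genes on each of 12 arrays, by genotype and CD24 fraction. Points are single arrays, with a shape for each run of array numbers, horizontal lines are group means and vertical lines 1 SD to each side (n = 3). Ptgs2 lies at 6.49 to 7.60 in Wnt4-deleted CD24 high cells and at 8.02 or above elsewhere, whereas Ptger2 and Ptger4 split by fraction.

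In CD24 high cells Ptgs2 was 2.76-fold lower after Wnt4 deletion, a log2 difference of -1.46 (SE 0.38). This was the difference by which Ptgs2 was chosen. It ranked 3 among the falls of all 19938 genes, and 1 among the genes that lay lower with no overlap, a pattern seen in 4.97% of genes in this direction. Within the runs the difference was -1.19 on arrays 2 and 4, -1.53 on arrays 10 and 12 and -1.67 on arrays 14 and 16. With no overlap, any pairing of these arrays would give falls. In CD24 low cells the runs gave 0.59, -0.40 and 1.37, and the difference of means was 0.52 (SE 0.38, 95% interval -0.32 to 1.36, adjusted p = 0.9998, limma). This comparison played no part in choosing the gene and did not pass. The genotype difference in CD24 low minus that in CD24 high cells was 1.98 (SE 0.54), a description, since it uses the same CD24 high arrays. Over all genes that difference of effects passed for 0 genes at the adjusted threshold of 0.05, and for 273, or 1.37%, at an unadjusted p under 0.05.

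**Figure D2:**
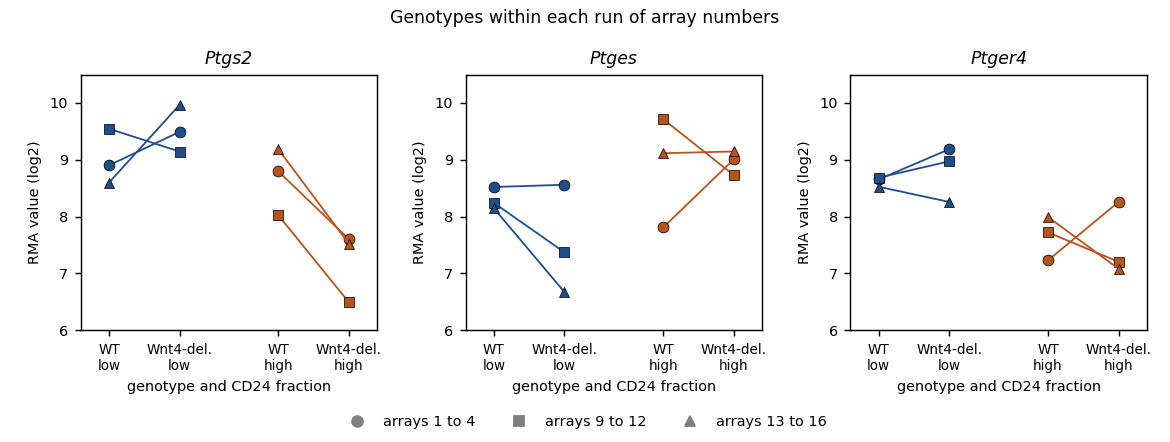
RMA value (log2) of Ptgs2, Ptges and Ptger4 in WT and Wnt4-deleted cells of each CD24 fraction, with lines joining the arrays of one run of array numbers. For Ptgs2 the 3 CD24 high lines slope down, from -1.19 to -1.67. Any pairing of those arrays would, since the gene was chosen by this difference and its groups did not overlap. The CD24 low lines do not share a direction.

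Between fractions, the level of Ptgs2 in WT cells was -0.35 (SE 0.38) in CD24 high relative to CD24 low, with overlapping groups. In Wnt4-deleted cells it was -2.33 (SE 0.38), or 5.04-fold lower, with no overlap. Across the CD24 low arrays Ptgs2 was 8.90 and 9.49 on arrays 1 and 3, where the endothelial markers were low and the skeletal muscle markers highest, and 8.60 to 9.97 on the others. Among CD24 high arrays the endothelial mean was 5.48 to 6.18 in WT and 5.27 to 6.48 after deletion, which overlapped. The luminal progenitor marker mean was 9.42 to 10.69 in WT CD24 high and 9.67 to 10.31 in Wnt4-deleted CD24 high cells. With the mean of all non-epithelial markers as a covariate the genotype difference in CD24 high cells was -1.48 (SE 0.39). That value is a description, since Ptgs2 was chosen by this difference. The part of cell composition in it was not tested.

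Of the synthases, Ptges, the inducible microsomal enzyme coupled to Ptgs2, was the one that varied. It read 8.52, 8.24 and 8.14 in WT CD24 low (8.30 ± 0.19, n = 3) and 8.56, 7.37 and 6.67 in Wnt4-deleted CD24 low cells (7.53 ± 0.95). In CD24 high cells it read 7.81, 9.71 and 9.11 in WT (8.88 ± 0.97) and 9.01, 8.73 and 9.15 after deletion (8.96 ± 0.21). The Wnt4-deleted fractions did not overlap, and array 2 lay apart from the other CD24 high arrays as array 3 did from its own group. Relative to CD24 low, CD24 high cells gave 0.58 (SE 0.49, adjusted p = 0.547) in WT and 1.43 (SE 0.49, adjusted p = 0.0745) in Wnt4-deleted mice, neither of which passed in limma. Both values were smaller with arrays 1 to 4 than without them. Without array 3 the Wnt4-deleted value was 1.94 (adjusted p = 0.0126) and without array 2 it was 1.43 (adjusted p = 0.0310), and on arrays 9 to 16 alone both genotypes passed, at 1.22 (adjusted p = 0.0266) and 1.92 (adjusted p = 0.0038). With the mean of non-epithelial markers as a covariate they were 0.06 (adjusted p = 0.979) and 0.77 (adjusted p = 0.730). That mean itself differed between the fractions, so that the fit cannot well separate it from the fraction.

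Ptges2, a membrane-associated synthase, stayed within 5.20 to 6.32 on all 12 arrays. Its fraction difference was smaller than its SE in WT and 0.41 (SE 0.23, adjusted p = 0.293) after deletion. In CD24 low cells its Wnt4-deleted minus WT difference was -0.47 (SE 0.23, unadjusted p = 0.0639), below 0 in every run at -0.33, -0.36 and -0.73. With the run as a block its unadjusted p was 0.0407 and its adjusted p 0.9996. Ptges3, a cytosolic synthase that is also the p23 co-chaperone, stayed within 10.46 to 11.31 and passed in no comparison. Its value is uncertain in origin: of 3 probesets named Ptges3, the one with the highest mean sits, in probeset numbering, among genes of chromosome 4, while the gene is on chromosome 10, so that near-identical copies may contribute.

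Hpgd, which starts the breakdown of prostaglandin E2, read 4.99, 5.68 and 4.82 in WT CD24 low (5.16 ± 0.45) and 4.80, 5.61 and 5.02 in Wnt4-deleted CD24 low cells (5.14 ± 0.42). In luminal cells it read 5.37, 6.02 and 5.72 in WT (5.70 ± 0.33) and 6.06, 5.76 and 5.88 after deletion (5.90 ± 0.15). CD24 high minus CD24 low was 0.54 (SE 0.26, adjusted p = 0.223) in WT and 0.76 (SE 0.26, adjusted p = 0.0761) in Wnt4-deleted cells, where the groups did not overlap. Arrays 9 and 11 were the high ones of the CD24 low groups, and were also those with the high fibroblast means. With the same covariate the differences became 1.29 (adjusted p = 0.0219) and 1.71 (adjusted p = 0.0157) and passed, and without array 9 or 11 the Wnt4-deleted difference passed too (adjusted p = 0.0464 and 0.0314). It also passed with the run of array numbers as a block (adjusted p = 0.0336).

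Of the receptors, Ptger1, Ptger2 and Ptger4 differed by fraction, passing in Wnt4-deleted but not in WT mice, and Ptger3 did not. Ptger4 and Ptger2, both linked to cAMP, lay higher in the CD24 low fraction, and Ptger1, linked to calcium, in the CD24 high fraction. The CD24 low arrays also held more non-epithelial RNA, whose part in these differences was not tested. Ptger4 read 8.65, 8.68 and 8.52 in WT CD24 low (8.62 ± 0.08) and 9.18, 8.97 and 8.26 in Wnt4-deleted CD24 low cells (8.80 ± 0.49). Luminal values were 7.23, 7.72 and 7.99 in WT (7.65 ± 0.39) and 8.26, 7.20 and 7.08 after deletion (7.51 ± 0.65). Fractions did not overlap in either genotype, although array 4 at 8.256 lay just under array 15 at 8.257. In Wnt4-deleted mice Ptger4 was 2.45-fold lower in CD24 high cells, a difference of -1.29 (SE 0.32, adjusted p = 0.0186). In WT mice the difference was -0.97 (SE 0.32, adjusted p = 0.0671).

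Ptger2 read 5.73, 5.82 and 5.84 in WT CD24 low (5.80 ± 0.06) and 5.61, 5.75 and 6.10 in Wnt4-deleted CD24 low cells (5.82 ± 0.25). Luminal values were 5.06, 5.55 and 5.24 in WT (5.28 ± 0.25) and 4.89, 5.01 and 5.25 after deletion (5.05 ± 0.18). All 6 CD24 low values lay above all 6 CD24 high values. The Wnt4-deleted difference of -0.77 (SE 0.16, adjusted p = 0.0075) passed, 1.71-fold lower, and the WT difference of -0.51 (SE 0.16, adjusted p = 0.0561) did not.

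Ptger1 read 6.20, 6.54 and 6.86 in WT CD24 low (6.53 ± 0.33) and 6.14, 6.70 and 5.91 in Wnt4-deleted CD24 low cells (6.25 ± 0.41). In CD24 high cells it read 6.97, 7.44 and 7.36 in WT (7.25 ± 0.25) and 6.95, 7.36 and 7.07 after deletion (7.12 ± 0.21). Here too all 6 arrays of one fraction lay above the 6 of the other, with CD24 high on top. The difference was 0.87 (SE 0.23, adjusted p = 0.0240, 1.83-fold higher) in Wnt4-deleted mice and 0.72 (SE 0.23, adjusted p = 0.0568) in WT mice. Ptger3 stayed within 3.78 to 4.55 and did not pass in either genotype.

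Of the 8 genes tested between fractions, 0 passed in WT mice, where 16.1% of all genes did, 7.93% higher and 8.21% lower in the luminal fraction. In Wnt4-deleted mice 3 passed, 1 higher and 2 lower, where 16.4% of all genes did, 8.23% higher and 8.22% lower. In WT mice 3 of the 8 had fractions that did not overlap, against 32.8% of all genes, and in Wnt4-deleted mice 5 of the 8, against 29.3%. The genotypes were not shown to differ in this, since the difference of effects passed for no gene (273 at an unadjusted p under 0.05). Averaged over both genotypes, 6 arrays against 6, a comparison added after the values were seen, 27.7% of all genes passed. Ptger4 at -1.13 (SE 0.23, adjusted p = 0.0032), Ptger2 at -0.64 (SE 0.12, adjusted p = 0.0015), Ptger1 at 0.80 (SE 0.16, adjusted p = 0.0034) and Hpgd at 0.65 (SE 0.19, adjusted p = 0.0220) were among them, 4 of 8. Hpgd did not pass without array 1, 4, 10 or 13 (adjusted p = 0.0516, 0.0510, 0.0572 and 0.0576). Ptges, at 1.002 (SE 0.35, adjusted p = 0.0532), was not among them. It passed in 8 of 21 alternatives, among them those without array 2 or 3 (adjusted p = 0.0087 and 0.0091), with array weights (adjusted p = 0.0023) and on arrays 9 to 16 (adjusted p = 0.0011), and was 0.42 (adjusted p = 0.822) with the covariate.

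**Figure D3:**
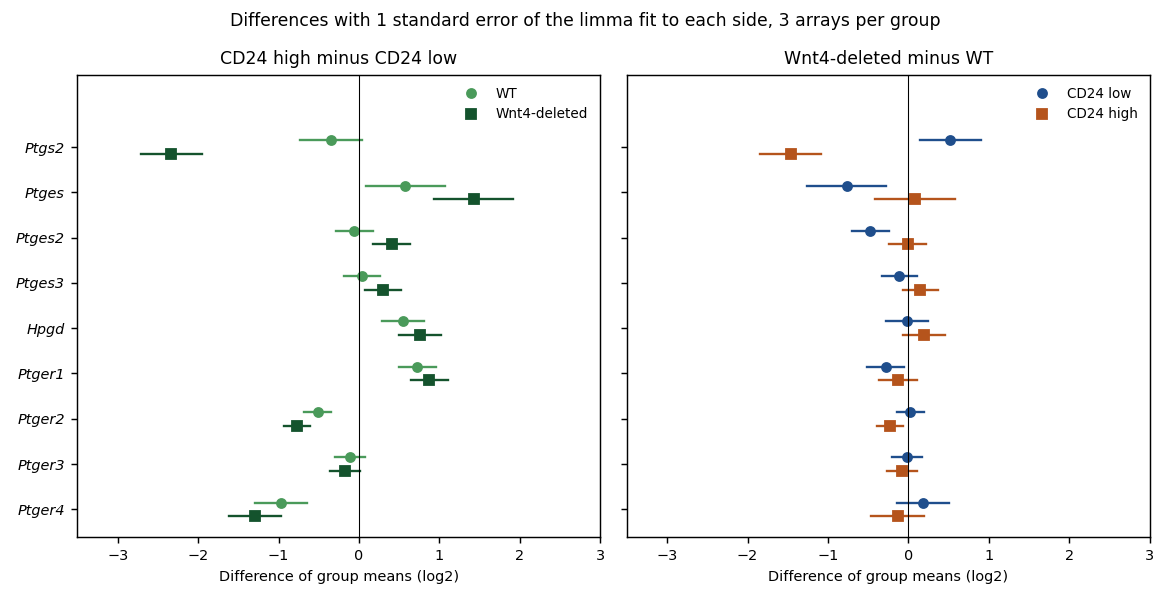
Differences of group means (log2) for 9 genes, CD24 high minus CD24 low at left and Wnt4-deleted minus WT at right, with lines of 1 standard error to each side (limma, 3 arrays per group). Ptger1 lies right of 0 and Ptger2 and Ptger4 left of 0 in both genotypes, and between genotypes Ptgs2 in CD24 high cells stands at -1.46 while the others lie between -0.77 and 0.52.

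Non-epithelial RNA moved with the fractions. All 12 endothelial markers were lower in CD24 high than CD24 low cells in both genotypes, 5 of them past the threshold in WT and 8 in Wnt4-deleted mice. Within arrays 1 to 4, where those markers were lowest, the CD24 high minus CD24 low difference of Ptger4 was -1.42 in WT and -0.93 in Wnt4-deleted cells, that of Ptger2 -0.67 and -0.72, and that of Ptger1 0.77 and 0.81. These values rest on 1 array per group and have no test, and skeletal muscle markers were highest on arrays 1 and 3. The endothelial mean still differed by fraction there, at 6.73 and 6.59 in CD24 low and 5.48 and 5.27 in CD24 high. The part of non-epithelial RNA in the receptor differences was not tested. With the mean of non-epithelial markers as a covariate the Wnt4-deleted differences became -1.55 for Ptger4 (adjusted p = 0.178), -0.57 for Ptger2 (adjusted p = 0.350) and 1.56 for Ptger1 (adjusted p = 0.0255). The first 2 calls were lost, with a larger Ptger4 and a smaller Ptger2 difference. The covariate itself was higher in the CD24 low arrays, so that this fit cannot well separate it from the fraction. Single arrays also decided calls: Ptger1 did not pass without array 3, 12, 15 or 16 (adjusted p = 0.0585, 0.0871, 0.0861 and 0.0634), nor Ptger4 without array 3, 11, 12 or 16 (adjusted p = 0.0554, 0.0636, 0.0707 and 0.0846). Ptger2 passed whichever array was left out. With the run as a block Ptger1 and Ptger2 passed in WT mice as well (adjusted p = 0.0244 and 0.0319). Ptger1 also newly passed there without array 2, 11, 13 or 15 (adjusted p = 0.0440, 0.0296, 0.0456 and 0.0455), Ptger2 without array 3, 10 or 15 (adjusted p = 0.0477, 0.0317 and 0.0367) and Ptger4 without array 4 or 15 (adjusted p = 0.0223 and 0.0462).

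Between genotypes no gene of the list passed. In CD24 low cells 0 of 9 passed (0.00502% of all genes did), 0 had an unadjusted p under 0.05 (1, Ptges2, with the run as a block) and 0 had groups free of overlap, against 3.06% and 6.77% of all genes. The largest differences there were Ptges at -0.77 (SE 0.49, 95% interval -1.85 to 0.31) and Ptgs2 at 0.52. In CD24 high cells 0 of the 8 tested passed (0.00502% of all genes did). None of the 8 had an unadjusted p under 0.05 or groups free of overlap, against 1.99% and 7.00% of all genes. The 95% intervals were wide: that of Ptges ran from -1.001 to 1.16 and that of Ptger4 from -0.85 to 0.58.

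The wider pathway was read through 147 further genes. Between fractions 37 of them passed in WT mice, 11 of these higher and 26 lower in the luminal fraction, and 37 in Wnt4-deleted mice, 13 higher and 24 lower. Of all genes 16.1% and 16.4% passed in these comparisons, close to evenly in both directions (8.21% and 8.22% lower). Between genotypes 0 passed in either fraction, with 0 (CD24 low) and 5 (CD24 high) at an unadjusted p under 0.05, beside 3.06% and 1.99% of all genes.

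Upstream, 3 of 21 genes of arachidonate release passed in both genotypes, all higher in CD24 high cells. Of all genes 16.1% passed in WT and 16.4% in Wnt4-deleted mice, 7.93% and 8.23% as higher. Plaat3, a phospholipase, was higher by 1.29 (SE 0.35) in WT and 1.58 (SE 0.35) in Wnt4-deleted mice, and Faah, which cleaves fatty acid amides to release arachidonate among others, by 0.70 and 0.89. Pla2g4c, a calcium-independent cytosolic phospholipase, was higher by 0.50 and 0.59. The median of the list was 0.05 in WT and 0.02 in Wnt4-deleted mice, beside 0.02 and 0.01 for all genes.

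Of 13 other prostanoid synthases and reductases, 4 passed in WT and 5 in Wnt4-deleted mice, where 16.1% and 16.4% of all genes did. Ptgr1 and Ptgr2, reductases that inactivate prostaglandins further after Hpgd, were higher in CD24 high cells, Ptgr1 by 1.14 and 1.07 and Ptgr2 by 0.92 and 1.07. The carbonyl reductase Cbr3 was lower, at -1.42 and -1.15. Zadh2, also a prostaglandin reductase, was lower at -0.76 and -0.99. Cbr2 was lower at -1.58 in Wnt4-deleted cells, with -0.80 (SE 0.48, adjusted p = 0.345) in WT.

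Of 6 transport genes measured, 3 passed in WT and 2 in Wnt4-deleted mice, all lower in CD24 high cells. In these comparisons 8.21% and 8.22% of all genes passed as lower. Slco3a1, a carrier of prostaglandins, was 3.42-fold lower in WT (-1.77, SE 0.15, adjusted p = 1.50e-05) and 3.75-fold lower in Wnt4-deleted cells (-1.91, SE 0.15, adjusted p = 9.18e-06). Abcc4, which exports prostaglandin E2, was lower by a log2 difference of -0.75 (adjusted p = 0.0252) and -0.89 (adjusted p = 0.0103). Slco2a1, the importer that feeds prostaglandins to Hpgd, was lower in WT at -1.59 (SE 0.40, adjusted p = 0.0192), with -0.53 (SE 0.40, adjusted p = 0.451) in Wnt4-deleted cells. None of 6 other prostanoid receptors passed (0 in each genotype), where 16.1% and 16.4% of all genes did. In the lipoxygenase branch 1 of 15 genes passed in WT and 3 of 15 in Wnt4-deleted mice, beside those same shares of all genes. The medians of this list were -0.08 and -0.02. Aloxe3 was higher in CD24 high cells in both genotypes, by 1.57 and 1.18. Ephx2 and Alox12e were higher in Wnt4-deleted mice, by 1.16 and 1.11, with 0.75 (adjusted p = 0.0998) and 0.56 (adjusted p = 0.267) in WT.

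Among 29 genes that couple the receptors to cAMP and calcium, 10 passed in WT, 9 of them lower in CD24 high cells, and 9 passed in Wnt4-deleted mice, 8 of them lower, where 8.21% and 8.22% of all genes passed as lower. Gnai1, the inhibitory G protein subunit, was 7.39-fold lower in WT (-2.89, SE 0.33, adjusted p = 1.36e-04) and 5.40-fold lower in Wnt4-deleted cells (-2.43, SE 0.33, adjusted p = 4.45e-04). Prkar2b, a regulatory subunit of protein kinase A, was higher by 1.83 and 1.91. The adenylyl cyclase Adcy7 was lower at -0.99 and -1.21, the CREB coactivator Crtc2 at -1.06 and -0.89, and the cAMP phosphodiesterase Pde4b at -0.78 and -1.31.

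Genes that cAMP induces were lower in CD24 high cells where they passed, 6 of 11 in WT and 5 of 11 in Wnt4-deleted mice, beside the same 8.21% and 8.22% of all genes. The nuclear receptors Nr4a1, Nr4a2 and Nr4a3 differed by -1.22, -1.82 and -1.49 in WT and by -1.25, -1.86 and -1.75 in Wnt4-deleted cells, and the phosphatase Dusp1 by -0.84 in WT, with -0.58 (SE 0.22, adjusted p = 0.101) in Wnt4-deleted cells. Of 30 stimulus-induced genes of the kind that includes Ptgs2, 8 passed in WT and 7 in Wnt4-deleted mice, in both directions. The shares of all genes passing were 16.1% and 16.4%. The cytokine Il6 differed by -3.79 and -4.42, the chemokines Ccl2 by -3.75 and -3.60 and Ccl7 by -2.92 and -2.90, and the adhesion gene Icam1 by -2.81 and -2.32. Lif, a cytokine of the Il6 family, went the other way at 2.44 and 2.69. Endothelial and fibroblast marker means were also higher in the CD24 low arrays, and their part in the differences of these single genes was not tested. Of 24 genes listed as regulators of Ptgs2, 5 passed in each genotype, 4 lower and 1 higher, beside those same shares. They included the transcription factor Cebpb, whose family binds the C/EBP letters shown above, at -1.35 and -1.48, and the decay factors Zfp36l1 at -0.93 and -0.95 and Zfp36l2 at -1.03 and -0.83. Tiparp, which was on the list but whose action on Ptgs2 was not tested, was also lower, at -1.57 and -1.23. The other one, the RNA-binding protein Tia1, was higher, at 0.85 and 0.65, and is named outside the rule for naming genes, after its values were seen.

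In Wnt4-deleted against WT CD24 high cells, the comparison in which Ptgs2 was chosen, none of these genes passed. All 11 cAMP-induced genes had differences below 0, from -0.61 to -0.01 with a median of -0.25, and so did 26 of 30 stimulus-induced genes, from -0.58 to 0.29 with a median of -0.15. Over all 19938 genes the median was -0.03, with 11288 below 0. The lists share genes with each other. In CD24 low cells the medians were -0.09 and -0.10, beside -0.02 for all genes. Cell type marker lists also leaned in the CD24 high comparison, and in both directions. There 10 of 10 skeletal muscle, 10 of 11 fibroblast and 11 of 13 leukocyte markers lay below 0. Of the luminal lists, 5 of 15 general and 2 of 9 hormone-sensing markers did. What these leanings reflect was not tested.

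**Figure D4:**
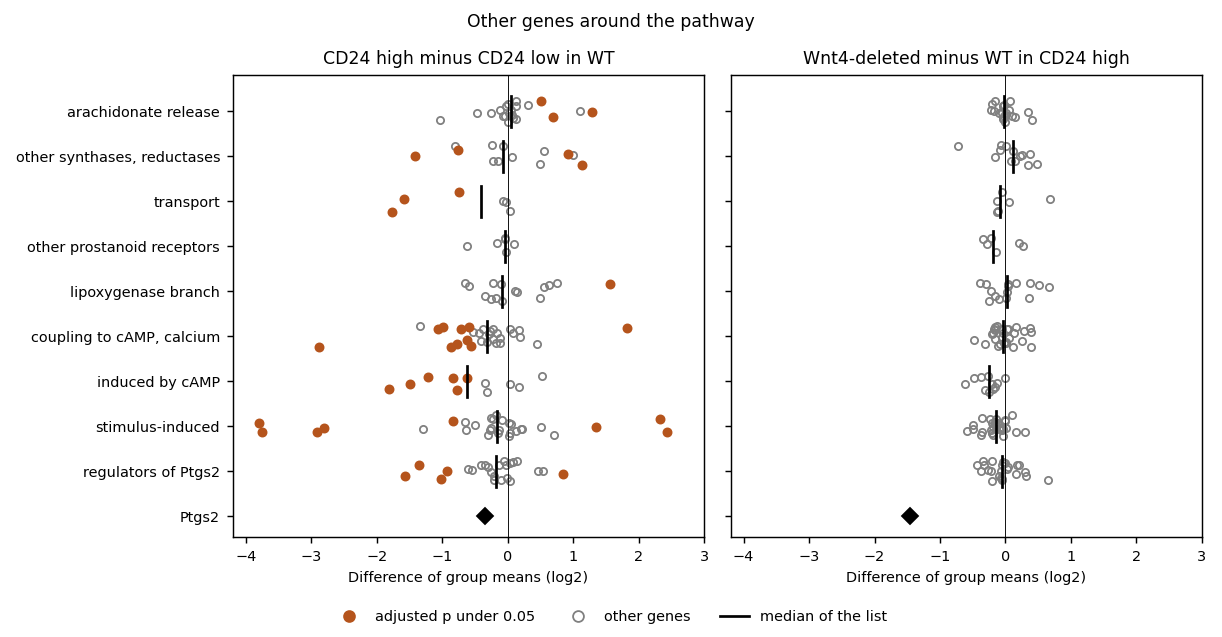
Differences of group means (log2) for the genes of 9 lists around the pathway, with Ptgs2 as a diamond, between fractions in WT (left) and between genotypes in CD24 high cells (right). Filled points passed an adjusted p under 0.05 and bars are list medians. At right no gene of the lists is filled, and Ptgs2 at -1.46 lies left of all of them.

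The genes whose values followed Ptgs2 most closely over the 12 arrays, among 3588 with an SD of at least 0.5, were Pelo (Pearson r = 0.856), Mgp (0.852), Filip1l (0.848), Plce1 (0.834) and Pde4b (0.816). These arrays share fraction, genotype and run, so that the points are not independent. Mgp, a matrix protein that binds calcium, read 11.16 to 12.15 in CD24 low, 9.67 to 10.48 in WT CD24 high and 8.59 to 9.77 in Wnt4-deleted CD24 high cells. It was picked for following Ptgs2, itself chosen as low in that last group, so a low level there was built into the choice. With group means taken off the leading genes were Lgals12 (0.875), Nucb2 (0.831), Prnp (0.785), Adm (0.751) and Mmaa (0.742). Only Filip1l of the first 5, and Lgals12 and Nucb2 of the second, were also among the leading 5 by Spearman rank correlation. Within the pathway r with Ptgs2 over the 12 arrays was 0.71 for Ptger2, 0.66 for Ptger4, -0.58 for Ptges and -0.69 for Ptger1. With group means taken off it was -0.05, 0.11, -0.22 and -0.58 for these genes.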

How the data were processed

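RNA of 12 sorted mammary cell samples was labelled with biotin and hybridised to Affymetrix arrays. Per the labels, the authors made log2 values by RMA in Affymetrix Expression Console 1.1.2800, and these deposited log2 values were used with no further normalization. Of 35556 probesets, 21789 carried 1 gene symbol, 1621 several and 12146 were not listed in the annotation and are unnamed here. For 999 genes with more than 1 probeset, the probeset of highest average level across the 12 arrays stood for the gene. Array medians were 5.64 to 5.82, and precision is limited by 3 arrays per group.

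Groups came from the sample labels. A linear model with 1 mean per group was fitted to all 19938 genes and 12 arrays with limma 3.58.1 in R 4.3.3 (two-sided, moderated by eBayes, Benjamini-Hochberg over all genes, threshold 0.05). It was tested on simulated data. The run of array numbers in the titles was tried as a block. Within runs, deviations from group means correlated at 0.18 to 0.53 between the Wnt4-deleted fractions and at 0.37 to 0.70 between genotypes in CD24 low cells, so that the numbers were taken to pair the arrays there, from the data and not from the labels. They correlated at -0.06 to 0.11 between WT fractions and -0.12 to 0.29 between genotypes in CD24 high cells. Nothing says how animals relate to arrays, so that p-values reflect only how these samples vary. An exact test of 3 arrays against 3 cannot give a p below 0.1.

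The genes, lists and tests were chosen with earlier results of these data known. All 10 genes are given. From each further list up to 4 genes per comparison were named, by size among those passing, and the 5 genes most like Ptgs2 by Pearson r, with predicted genes left out. Alternatives covered probeset choice, filter, scaling, weights, run, marker covariate, threshold and samples left out. Promoters were RefSeq's (GRCm38.p6). No promoter of Ptger1 and no protein sequence was used here.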

Additional observations from a re-analysis of the deposited data

How the results depend on the processing

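Over the alternatives Ptgs2 in Wnt4-deleted against WT CD24 high cells, the difference by which it was chosen, ranged from -1.79 to -1.11. Its groups there did not overlap, so leaving out an array could not turn its sign. In CD24 low cells it ranged from 0.30 to 0.79 without passing. A value counted as unchanged if it kept direction and side of the threshold. For Ptgs2 where it was not tested, it had to keep direction and move by less than the within-group SD. Of 610 alternative values of single genes, 545 were unchanged in this sense, 41 newly passed, 20 no longer passed and 4 turned sign. Those 4 came with the non-epithelial marker mean as a covariate: Ptges2 at -0.41 in Wnt4-deleted fractions, and, averaged over genotypes, Ptges2 at -0.56, Ptges3 at -0.062 and Ptger3 at 0.31. Of 26 further values smaller than their standard error or differences of effects, 18 changed sign in some alternative and 0 passed.

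Between WT fractions the count of tested genes passing, 0 as reported, was 2 without genes below the 40th percentile of level, 1 with median centring, 1 with quantile normalization, 5 with array weights, 2 with the covariate, 1 with only the arrays compared, 3 at a threshold of 0.1 and 1 on arrays 9 to 16. In Wnt4-deleted mice it was 3, and 1 with only the arrays compared, 1 at 0.01 and 5 at 0.1, and averaged over genotypes 4, and 2 with the covariate. Genes passing overall went from 3218 in WT to 5215 with weights, 1957 with the covariate and 1843 at 0.01, from 3278 in Wnt4-deleted mice to 1388 and 1854 (covariate, 0.01), and from 5523 averaged to 2083 and 3634. Further pathway genes went from 37 in WT to 56 with weights, 18 with the covariate and 20 at 0.01, from 37 in Wnt4-deleted mice to 14 and 20, and from 55 averaged to 22 with the covariate. Between genotypes the 1 gene passing in CD24 low cells became 0 with only the arrays compared, and 0 on arrays 9 to 16, as did the 1 in CD24 high cells. The cause of these changes was not tested.

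Leaving out 1 array at a time, tested genes passing ranged from 0 to 3 in WT, 1 to 4 in Wnt4-deleted mice and 3 to 5 averaged. Genes overall ranged from 2282 to 3526, 2156 to 3628 and 4698 to 5810, and further pathway genes from 24 to 39, 26 to 41 and 48 to 61. Genes between genotypes in CD24 low cells ranged from 1 to 2.

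With the run of array numbers as a block the tested genes passing in WT became 2, Ptger1 (adjusted p = 0.0244) and Ptger2 (adjusted p = 0.0319), and in Wnt4-deleted mice 4, with Hpgd added (adjusted p = 0.0336). No other call on a tested gene changed with the block. Arrays of different runs correlated at -0.53 to 0.36 in their deviations from group means (36 pairs).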
